A study of Zea mays with 6 samples.

Results

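The response of the maize mesocotyl to added GA3, a gibberellin, was described from 4 of the 6 arrays of the series: 2 hybridized with RNA of GA3-treated plants and 2 with RNA of controls. Each GA3 array was set against the control array of the same replicate number. Of 17555 maize probe sets, the 10533 with the highest mean signal were tested, so changes of dimmer ones are mostly not described. All plants were of the maize inbred line 3681-4, were sown 20 cm deep, were kept in darkness and were sampled 10 days after sowing. The remaining 2 arrays came from plants given UCZ, per the series a blocker of gibberellin synthesis, and were fitted together with the others to estimate 1 common spread. Total RNA was taken from mesocotyls with TRIzol and labelled with biotin for an Affymetrix maize array. The doses, the times of treatment, the solvent, any treatment of the controls and the number of plants per array are not stated in the labels or the series text.

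The mesocotyl is the stem segment between the seed and the coleoptile of a grass seedling, and its elongation carries the shoot of a deep-sown seedling to the soil surface. Gibberellins are diterpenoid hormones that promote stem growth by binding the receptor GID1, which leads to the breakdown of DELLA proteins that hold back growth. Growth itself needs wall loosening, in which expansins take part, and water uptake, which passes in part through aquaporins of the plasma and vacuolar membranes.

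The number of arrays, 2 in each group, limits the precision of every value. Replicates are labelled as biological, from experiments described as independent; where they did not come from separate plants, p-values measure only the spread between arrays. Median signals lay between 184.5 and 203.3 on all 6 arrays. RNA integrity was gauged by the ratio of actin signals at the 3′ and 5′ ends, which stood at 3.57 and 2.76 in control and 4.64 and 3.40 in GA3, higher in GA3 within both pairs, and its part in the results was not tested. No gene marks the mesocotyl alone, so the labelled tissue was checked with lists of genes of other tissues. These lists were matched by gene symbol, and where their members are expressed was not tested. All 19 leaf photosynthesis genes on the array passed the filter on low signal, against 2 of 21 kernel genes, 1 of 5 root genes and 6 of 21 pollen and flower genes. Although the plants are described as dark-grown, the summed signal of the 19 leaf photosynthesis genes was high, at 96174 and 98461 in control and 74525 and 79667 in GA3. The summed signals were 207.1 and 178.4 in control against 220.9 and 208.5 in GA3 for the kernel genes, 887.0 and 901.8 against 787.6 and 675.4 for the root gene, and 2374 and 2370 against 1864 and 1648 for the pollen and flower genes.

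Added GA3 changed a minority of transcripts, and falls outnumbered rises. Of 10533 probe sets kept, 861 (8.17%) differed between GA3 and control at an adjusted p under 0.05 (limma with the replicate number as a block), 324 of them higher in GA3 (3.08%) and 537 lower (5.1%). Such probe sets are called below, and rose or fell is written only of them. The changes were mostly small: the median size of the log2 change was 0.613 among called probe sets and 0.136 among all, on the log2(signal + 16) scale used throughout, which understates changes of dim genes. At least 2-fold differences were seen in 44 of the called probe sets that rose and 89 that fell, and at least 4-fold ones in 1 and 11. Because each array holds a piece of whole tissue, fewer cells of a type and less RNA per cell cannot be told apart.

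The pairs were then set side by side. Across the 10533 probe sets, which are not independent replicates, the differences of the pairs correlated with a Pearson r of 0.546 and a Spearman rho of 0.362. The difference was the larger in pair 1 for 440 called probe sets and in pair 2 for 421, and the pairs lay within 0.5 of each other on the log2 scale for 772. All 861 called probe sets went the same way in both pairs, against 61.0% of all kept, but the calls were made from these same pairs, so this describes the calls and does not support them. The same holds for the lack of overlap between control and GA3 arrays, seen for 788 called probe sets and 40.1% of all. By the stricter count of a difference of at least 2-fold alike in both pairs, 98 probe sets (0.93%) qualified, 31 higher and 67 lower, all of them called; scaled to the poly-A controls, 82 qualified, 42 higher and 40 lower. Of these 98, 17 belong to a named gene, 3 to genes known by a LOC number only and 78 to no gene in the annotation used here. The 17 include a probe set of pgr5 at log2 −1.78 (adjusted p = 5.6e-06). The brighter probe set of pgr5 had −0.22 (adjusted p = 0.30), so pgr5 is not among the falls named below. No probe set kept was 2-fold higher in one pair and 2-fold lower in the other.

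**Figure D1:**
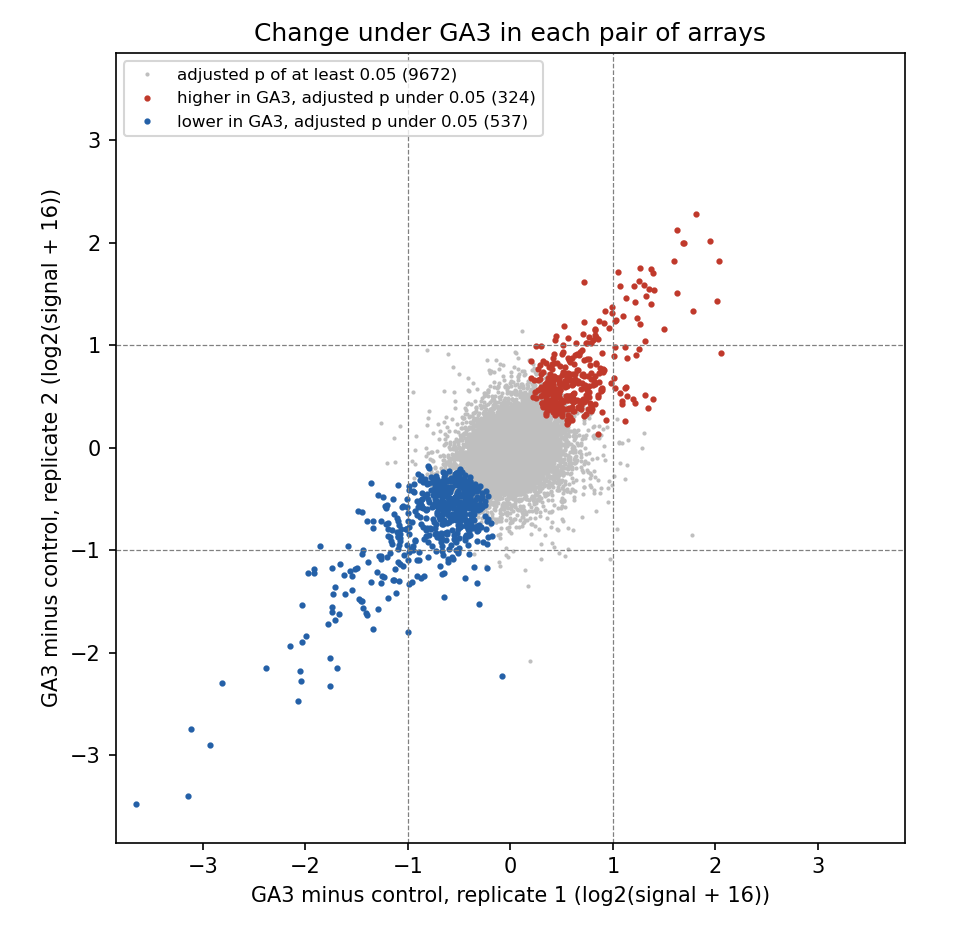
Each point is 1 probe set, with the GA3 minus control difference of replicate 1 on the horizontal axis and of replicate 2 on the vertical axis, both in log2(signal + 16). The 324 called rises and 537 called falls lie in the quadrants where both pairs agree in sign, and the dashed lines mark 2-fold changes.

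The count and its split depend on the fit and the scaling. Without the block 139 probe sets were called (50 higher, 89 lower), and without GA3 replicate 1 the blocked fit called 511. Of the 87 called features named by rule, 28 were called without the block. At an unadjusted p under 0.05 there were 2207. Of the called probe sets 37.6% were higher in GA3; when the arrays were scaled to the spiked-in poly-A controls the share was 67.9%, with 309 higher and 146 lower, because the median change over all probe sets kept was then 0.19 in place of 0.018. The poly-A controls differed between GA3 and control by log2 −0.037 in pair 1 and −0.32 in pair 2, so most of the shift lay in pair 2. Changes under poly-A control scaling are read relative to 0.19.

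Among the genes that carry a name, 30 are described as the 15 largest rises and 15 largest falls. Wall-loosening, water-channel and drying-response genes stood among the rises, and pathogenesis-related and metabolic genes among the falls, but both sides were mixed. The aquaporin Lsi6 was among the falls, and phytase1, gst12 and gst2 were among the rises. Of the 715 named genes measured, taking the brightest probe set of each, 40 rose and 59 fell. Of the 30 genes, 26 were called in each of the 6 fits that left out 1 array; the exceptions were hsp22, M2, por2 and AGA2.

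**Figure D2:**
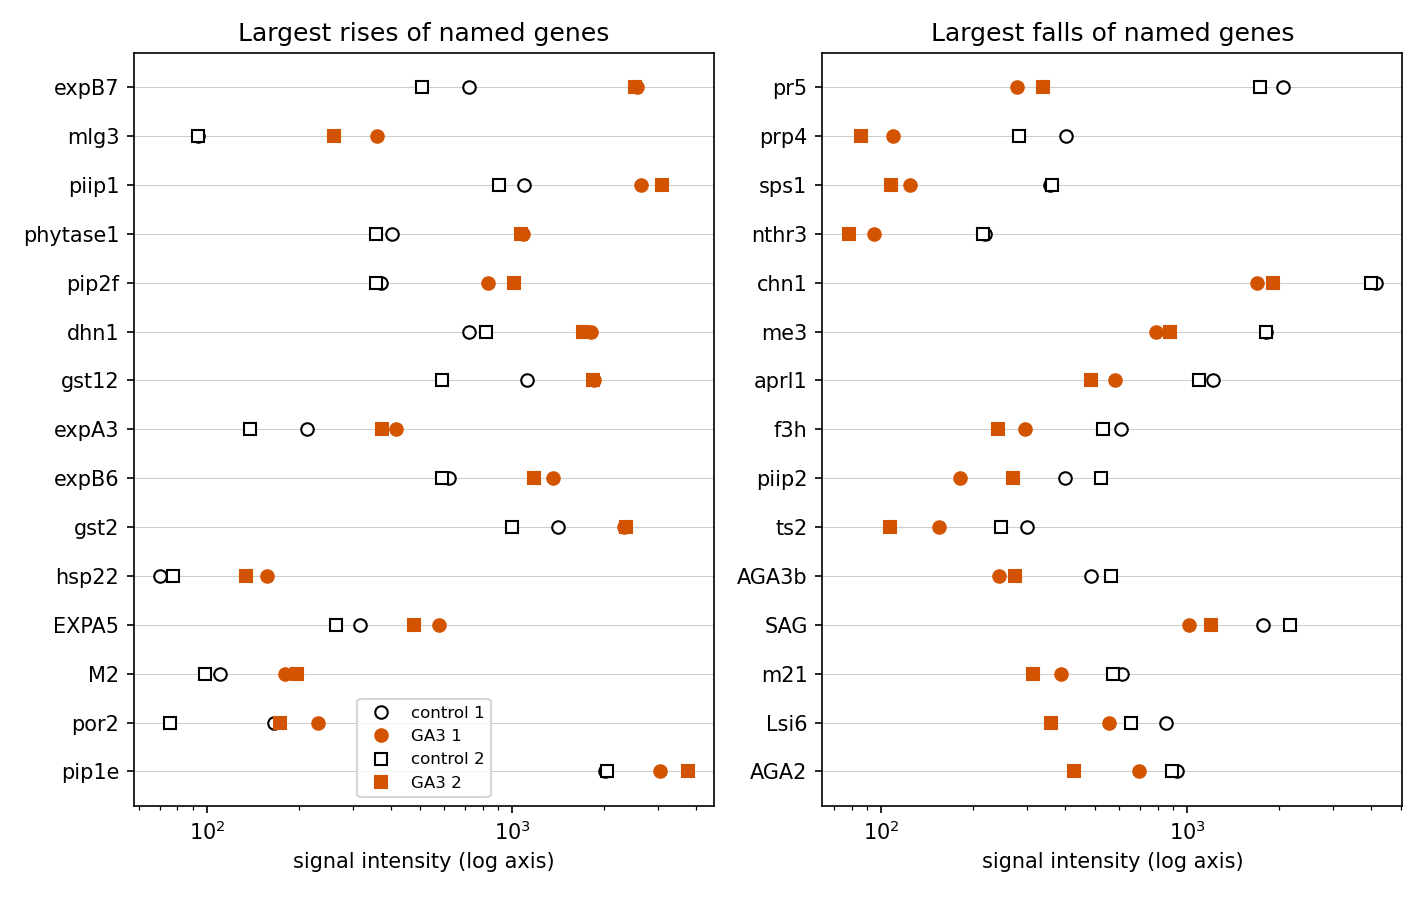
Signal intensity on a log axis for the 15 largest rises (left) and 15 largest falls (right) of named genes, with open symbols for control and filled symbols for GA3, circles for replicate 1 and squares for replicate 2. For all 30 genes both GA3 arrays lie on the same side of both control arrays; por2 has 166 in control replicate 1 and 173 in GA3 replicate 2.

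Expansins, the wall proteins that loosen the bonds between cellulose and other polysaccharides, were the gene group with the largest share of rises. Of 9 measured expansins 6 rose, none fell and 3 did not pass, with a median log2 change of 0.63, against 45 rises and 68 falls and a median of 0.00 over all 816 genes measured (13.8% called). That 13.8% stands beside every list count below. Called shares were 34.8% for aquaporins, 42.9% for cysteine proteases, 33.3% for the abscisic acid list and 20.8% for glutathione S-transferases. Heat shock and sucrose lists each had 25%, and the list of pollen and flower genes, matched by symbol, 83.3%. Near or below 13.8% were fermentation (18.2%), ribosomal proteins (15.8%), transcription factors and ammonium assimilation (12.5% each), peroxidases (10%) and the cell cycle list (5%). The beta-expansin expB7 had signals of 721 and 508 in control and 2573 and 2524 in GA3. Its GA3 arrays were alike and far above both controls, a 4.13-fold rise (log2 2.04, SE 0.12, adjusted p = 2.2e-07), the largest rise of any probe set kept. Another beta-expansin, expB6, had 620 and 587 in control and 1363 and 1177 in GA3, and the alpha-expansin expA3 had 212 and 138 in control and 417 and 374 in GA3. Neither overlapped between the groups, and the log2 changes were 1.05 (SE 0.11, adjusted p = 4.1e-05) and 1.13 (SE 0.15, adjusted p = 0.00027).

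The alpha-expansin EXPA5 rose from 317 and 264 to 577 and 478 with nearly the same log2 difference in each pair, 0.83 and 0.82. The beta-expansin expB8, the brightest of those that rose, went from 2293 and 2485 to 3272 and 4162 (log2 0.63, adjusted p = 0.0016). The dimmer expB3 went from 162 and 167 to 236 and 265 (log2 0.56, adjusted p = 0.025), and its call was lost on leaving out any 1 of the 4 control and GA3 arrays, with adjusted p from 0.060 without control replicate 1 to 0.21 without GA3 replicate 2. The 3 that did not pass include the brightest of the family, expB4, which had 4762 and 3898 in control and 3669 and 3652 in GA3 (log2 −0.23, adjusted p = 0.21). The others, expa1 and expA4, had log2 changes of 0.31 and 0.28. Without the block 2 expansins were called, expB7 and expB6, while all 3 other scalings called 6.

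Neither list of other wall genes held a rise. Of 3 enzymes of wall polysaccharides, xet1, a xyloglucan endotransglucosylase that cuts and rejoins xyloglucan chains, fell from 1157 and 1021 to 841 and 692 (log2 −0.50, adjusted p = 0.011), although not without GA3 replicate 2 (log2 −0.43, adjusted p = 0.13). Of 14 cellulose synthesis genes 2 fell and none rose, with a median of −0.13, or 0.05 when scaled to the poly-A controls; this share is near the 13.8% called over all genes. The faller CesA12, a cellulose synthase, went from 1315 and 1611 to 1153 and 964. The other, bk2, the COBRA-like brittle stalk gene needed for stalk strength, went from 748 and 737 to 497 and 585. Both were near the threshold (adjusted p = 0.047 and 0.038), and each lost its call without GA3 replicate 2 (adjusted p = 0.42 and 0.098) and without 1 or 2 of the other arrays (CesA12 without control replicate 2, 0.39; bk2 without control replicate 1, 0.24, and GA3 replicate 1, 0.26). None of 14 tubulins, profilins and actin-depolymerizing factors was called, and their log2 changes lay between −0.15 and 0.15.

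**Figure D3:**
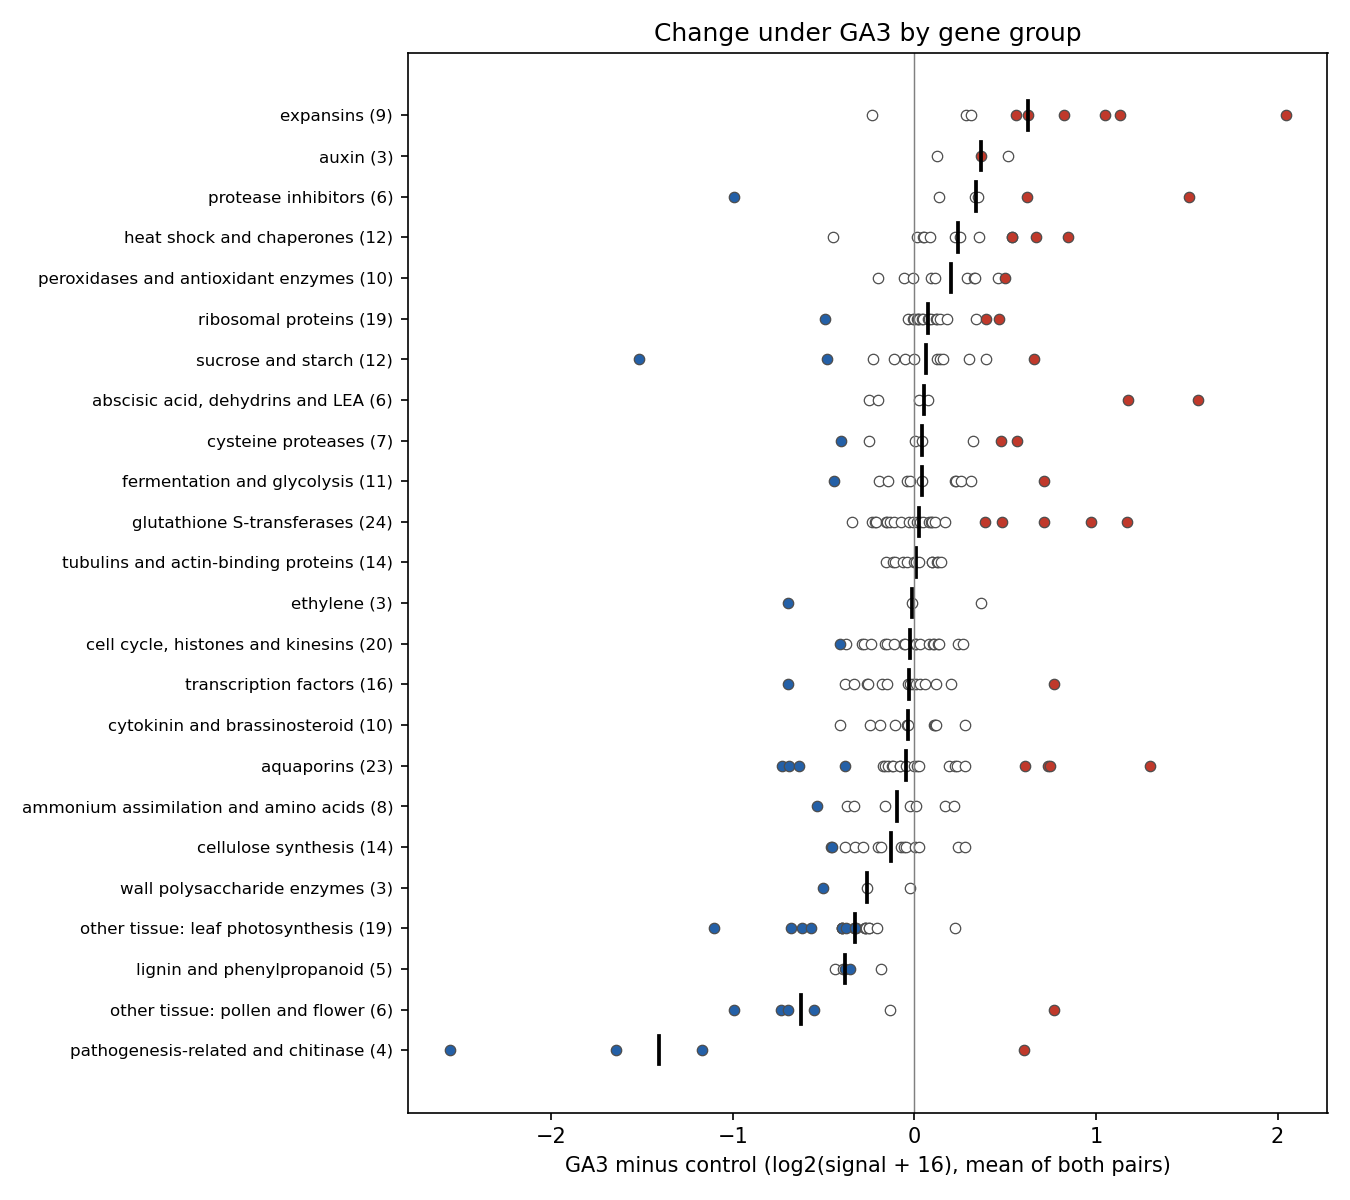
Log2 change under GA3 of every measured member of the 24 gene groups with at least 3 members, one row per group with its number of members, filled where called and open where not, with a vertical bar at the group's median. Expansins have the highest median at 0.63 and the pathogenesis-related group the lowest at −1.41.

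The gibberellin pathway itself was represented by 5 genes, of which an1 alone passed the filter on low signal. The product of an1 is an ent-copalyl diphosphate synthase, which makes the first committed precursor of gibberellins. It had signals of 460 and 513 in control and 459 and 499 in GA3, with overlapping groups (log2 −0.021, SE 0.12, adjusted p = 0.95). The second ent-copalyl diphosphate synthase, CPPS2 (an2), which is known in maize for the synthesis of defensive diterpenoids, had 332 and 296 in control but 27.1 and 32.4 in GA3. Its low GA3 and UCZ signals put it below the filter; in the fit without a filter its log2 change was −2.85 (adjusted p = 0.0001; 0.0017 without the block), alike in both pairs at −3.02 and −2.69. The same fit called none of the other 3. The cytochrome P450 gene d3 (dwarf3), which oxidizes ent-kaurenoic acid on the way to gibberellins, had 75.2 and 97.5 in control and 98.2 and 123.5 in GA3 (adjusted p = 0.44). The gene listed as GA20 had 7.48 and 17.9 in control and 14.8 and 71.7 in GA3 (adjusted p = 0.13), and eks1, with the synonym KS, stayed between 14.4 and 27.6 on these arrays.

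Pathogenesis-related genes held the largest fall among named genes that passed the filter on low signal. Of 4 measured, 3 fell and 1 rose, with a median of −1.41, and these calls held under every scaling and in every fit that left out 1 array. The gene pr5, of the thaumatin-like family of pathogenesis-related proteins, went from 2050 and 1731 in control to 277 and 339 in GA3. Control signals were thus several times those of GA3 in both pairs, a 5.89-fold fall (log2 −2.56, SE 0.13, adjusted p = 5.2e-08). Signals of prp4 went from 400 and 283 to 109 and 86.1 (log2 −1.64, SE 0.16, adjusted p = 1.6e-05), and those of chn1, a chitinase that cuts the chitin of fungal walls, from 4143 and 3997 to 1694 and 1909 (log2 −1.17, SE 0.10, adjusted p = 4.9e-06). The prp4 probe set carries the suffix s, which the manufacturer uses for probes shared by several transcripts, so its value is uncertain as to the gene. The opposite direction was seen for prp2, which rose from 3566 and 2999 to 5063 and 4906 (log2 0.61, adjusted p = 0.0010; 0.058 without the block).

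Protease inhibitors moved in both directions. The gene piip1, grouped with them by its symbol, had 1090 and 902 in control and 2648 and 3090 in GA3, which did not overlap (log2 1.51, SE 0.12, adjusted p = 2.9e-06), and its 3 other probe sets also rose, by 1.56, 1.44 and 0.51. Its relative by name, piip2, fell from 399 and 521 to 181 and 270 (log2 −0.99, adjusted p = 0.00047; 0.093 without the block). The cystatin cpi2, an inhibitor of cysteine proteases, rose from 3010 and 3069 to 4422 and 4973 (log2 0.62, adjusted p = 0.00075). The probe sets whose signals are given for piip1 and cpi2 carry the suffix x. The manufacturer uses it for probes that may bind related transcripts, so these values are uncertain as to the gene. Of the other piip1 probe sets, the one at 1.44 also carries it. Those at 1.56 and 0.51 do not, and the latter showed a much smaller rise (adjusted p = 0.025). The wound-induced inhibitor wip1 did not pass, at 4456 and 3897 in control and 4684 and 4490 in GA3 (log2 0.14).

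Among 7 cysteine proteases, mir2 and mir3 rose and see2b fell. Signals of mir2 went from 1007 and 1148 to 1617 and 1585 (log2 0.57, adjusted p = 0.0055) and those of mir3 from 1350 and 1528 to 2008 and 2004 (log2 0.48, adjusted p = 0.0093), but both lost their call without control replicate 1 or GA3 replicate 1 (adjusted p up to 0.062 and 0.13). A second probe set of this mir3 did not pass (log2 0.23, adjusted p = 0.24), nor did another gene with the symbol mir3 (log2 0.33, adjusted p = 0.089). The legumain-like protease gene see2b, known as a senescence-enhanced gene, went from 1507 and 1813 to 1265 and 1227 (log2 −0.40, adjusted p = 0.038; 0.28 at most with 1 array left out, where control replicate 2 and each GA3 replicate decided the call). The bright proteases ccp1 and ccp2 had log2 changes of 0.04 and 0.01.

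Of 6 genes of abscisic acid synthesis, dehydrins and late embryogenesis abundant (LEA) proteins, 2 rose. The group 3 LEA gene mlg3 had 93.1 and 93.2 in control and 360 and 260 in GA3 (log2 1.56, SE 0.17, adjusted p = 4.4e-05). The dehydrin gene dhn1, whose product accumulates in drying tissue and in embryos, had 720 and 824 in control and 1815 and 1712 in GA3 (log2 1.18, SE 0.13, adjusted p = 4.2e-05). For both genes the GA3 arrays stood at more than 2-fold the level of their control in each pair. The second dehydrin measured, dehydrin3, did not follow, at 1199 and 1439 in control and 1185 and 1623 in GA3. Neither did vp14, a 9-cis-epoxycarotenoid dioxygenase of abscisic acid synthesis, with 121.0 and 120.9 in control and 98.4 and 108.2 in GA3 (log2 −0.20, adjusted p = 0.55).

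Aquaporins split evenly. Of 23 measured, 4 rose, 4 fell and 15 did not pass, with a median of −0.05 that became 0.13 under poly-A control scaling, where 4 rose and none fell; without the block 1 rose and none fell. The plasma membrane aquaporin pip2f had 372 and 357 in control and 832 and 1014 in GA3, well apart in both pairs (log2 1.30, SE 0.13, adjusted p = 1.9e-05). Its relative pip1e rose from 2009 and 2039 to 3048 and 3764 (log2 0.74, adjusted p = 0.00048), and the tonoplast aquaporin tip2b from 889 and 557 to 1180 and 992 (log2 0.61, adjusted p = 0.0089). The dim por2, with the synonym TIP2-3, went from 166 and 75.3 to 231 and 173 (log2 0.75, adjusted p = 0.017), with differences of 0.44 and 1.05 in the pairs. The calls of tip2b and por2 were lost without control replicate 2 (adjusted p = 0.056 and 0.19) and without GA3 replicate 2 (0.20 and 0.19).

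The 4 aquaporins that fell include Lsi6 and Lsi1, which are known as silicon transporters from rice. Signals of Lsi6 went from 855 and 655 to 553 and 358 (log2 −0.73, adjusted p = 0.0030), and those of Lsi1 from 465 and 386 to 289 and 247 (log2 −0.63, adjusted p = 0.0067; 0.078 without GA3 replicate 1). The nodulin-like intrinsic protein gene nip2b fell from 2683 and 2273 to 2115 and 1692, and tip4d from 154 and 162 to 98.2 and 86.1. Both were less firm, with adjusted p of 0.031 and 0.017, up to 0.18 and 0.13 with 1 array left out. The calls were lost for nip2b without any 1 of the control and GA3 arrays, and for tip4d without control replicate 2 or either GA3 replicate. The brightest aquaporins did not pass: PIP1-1 had 8115 and 8019 in control and 7635 and 8717 in GA3, and tip1, tip2a and pip1b had log2 changes of −0.05, 0.03 and −0.08.

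Glutathione S-transferases, which join glutathione to toxic or reactive compounds, had 5 rises, no fall and 19 genes that did not pass among 24, with a median of 0.02, and none was called without the block. The highest was gst12, with 1116 and 590 in control and 1852 and 1844 in GA3. Its pair differences were unequal, 0.72 and 1.62, with like GA3 signals and unlike control signals (log2 1.17, SE 0.16, adjusted p = 0.00040; 0.098 without the block). In the same way gst2 had 1415 and 997 in control and 2333 and 2354 in GA3 (log2 0.97, adjusted p = 0.00023; 0.074 without the block), while gst11 rose evenly by 0.72 and 0.70. The other 2, gst5 and gst17, rose by 0.48 and 0.39. The call of gst5 was lost without GA3 replicate 1 (adjusted p = 0.10), that of gst17 without any 1 of the 6 arrays (up to 0.27).

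Of 12 heat shock and chaperone genes, 3 rose, none fell, and 11 lay above 0, with a median of 0.24. Over all 816 genes measured 415 lay above 0. None of the 12 was called without the block. Without control replicate 1 and without GA3 replicate 1, 8 of the 12 lay above 0, with medians of 0.22 and 0.18. The small heat shock genes hsp22 and hsp18a had 70.2 and 77.6, and 215 and 199, in control, and 157 and 134, and 367 and 313, in GA3. Their log2 changes were 0.85 (adjusted p = 0.0041; 0.075 without GA3 replicate 1) and 0.67 (adjusted p = 0.0053). The third, hsp18, was at the threshold (adjusted p = 0.0499), its groups overlapped, with 108 and 69.3 in control and 191 and 91.2 in GA3, and it lost its call without either control replicate (0.17 and 0.058) or without GA3 replicate 1 (0.50). The endoplasmic reticulum chaperones bip1 and bip2 had log2 changes of 0.01 and 0.05.

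The gene phytase1, whose product frees phosphate from phytate, had 403 and 358 in control and 1089 and 1072 in GA3, a rise seen alike in the pairs at 1.40 and 1.54 (log2 1.47, SE 0.13, adjusted p = 5.1e-06). Of 12 sucrose and starch genes 1 rose, 2 fell and 9 did not pass, with a median of 0.06. The gene sps1, for sucrose phosphate synthase, fell from 357 and 362 to 124 and 107 (log2 −1.51, SE 0.15, adjusted p = 2.35e-05), with both GA3 arrays well below both controls. Both directions were seen among ADP-glucose pyrophosphorylase genes, whose products make the precursor of starch. Agpsemzm rose from 612 and 510 to 1032 and 769 (log2 0.66, adjusted p = 0.0022; 0.17 without the block), and GLG1 fell from 1088 and 1087 to 725 and 827 (log2 −0.48, adjusted p = 0.016; up to 0.21 without control replicate 1 or GA3 replicate 1).

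In fermentation and glycolysis, 1 of 11 genes rose and 1 fell. Pyruvate decarboxylase pdc3, which starts ethanol fermentation, had 754 and 781 in control and 1244 and 1295 in GA3, with equal rises of 0.71 and 0.72 (adjusted p = 0.00058). The alcohol dehydrogenase adh1, next in that path, had 923 and 980 in control and 1352 and 1041 in GA3 (log2 0.31, adjusted p = 0.15). The phosphofructokinase gene pfk1 fell by 0.44 on the log2 scale (adjusted p = 0.040), and lost its call without either control replicate or without GA3 replicate 1 (adjusted p up to 0.36). Of 8 genes of ammonium assimilation and amino acids, lkrsdh1, of lysine breakdown, fell from 829 and 761 to 632 and 466 (log2 −0.54, adjusted p = 0.015; up to 0.22 without control replicate 2 or GA3 replicate 2).

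No gene of phenolic compounds rose. The flavanone 3-hydroxylase gene f3h, of flavonoid synthesis, went from 607 and 531 to 295 and 240, about 2-fold in each pair (log2 −1.05, SE 0.14, adjusted p = 0.00033), whereas a2, a later step towards anthocyanins, had a log2 change of 0.14. All 5 lignin and phenylpropanoid genes lay below 0, with a median of −0.38, also below 0 under each scaling. The calls were 2, for 4CL, 4-coumarate ligase (1340 and 1604 in control, 1032 and 1216 in GA3, adjusted p = 0.040), and BM1, the cinnamyl alcohol dehydrogenase of the brown midrib1 locus (3498 and 3386 in control, 2810 and 2567 in GA3, adjusted p = 0.049). Neither was called with median centring, poly-A control scaling or no block, or without control replicate 2, GA3 replicate 1 or GA3 replicate 2 (adjusted p up to 0.20 and 0.25), and 4CL not without control replicate 1 nor BM1 without either UCZ replicate.

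Leaf photosynthesis genes, listed as markers of another tissue, were nearly all lower in GA3. Of 19 measured 9 fell and none rose, 18 lay below 0 with a median of −0.33, and for all 19 the control and GA3 arrays did not overlap, beside 13.8% called over all 816 genes and 40.1% of all probe sets without overlap. The largest fall was that of me3, an NADP-malic enzyme of C4 photosynthesis, which had 1813 and 1808 in control and 793 and 878 in GA3 (log2 −1.10, SE 0.11, adjusted p = 1.8e-05). Signals of pdk1, pyruvate phosphate dikinase, went from 5251 and 5730 to 3236 and 3616 (log2 −0.68, adjusted p = 0.00032), with 2 further probe sets at −0.78 and −0.77 and a dim one at 0.17. The phosphoenolpyruvate carboxylase gene pep1 went from 6604 and 7841 to 4951 and 4759 (log2 −0.57, adjusted p = 0.0021), and mdh6, a chloroplast malate dehydrogenase, from 3160 and 3364 to 2441 and 2568.

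The other falls in this group were those of L-FNRII, a leaf ferredoxin reductase, of psbs1, the photoprotective protein of photosystem II, of gpa1, a chloroplast glyceraldehyde-3-phosphate dehydrogenase, and of the antenna proteins Lhcb5-2 and lhcb6, with log2 changes between −0.62 and −0.33. The brightest member, Cab-m7, a chlorophyll-binding protein, had 12448 and 11776 in control and 9207 and 10934 in GA3 (log2 −0.27, adjusted p = 0.11). Only me2, another malic enzyme, lay above 0 (0.23, adjusted p = 0.18). Calls numbered between 6 and 7 with 1 of the control or GA3 arrays left out, 2 without the block, 6 with median centring and 1 (me3) under poly-A control scaling, where 18 still lay below 0 and the median was −0.15 against 0.19 for all probe sets. The share of the tissue made up by green cells was not measured, and its part in these values was not tested.

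**Figure D4:**
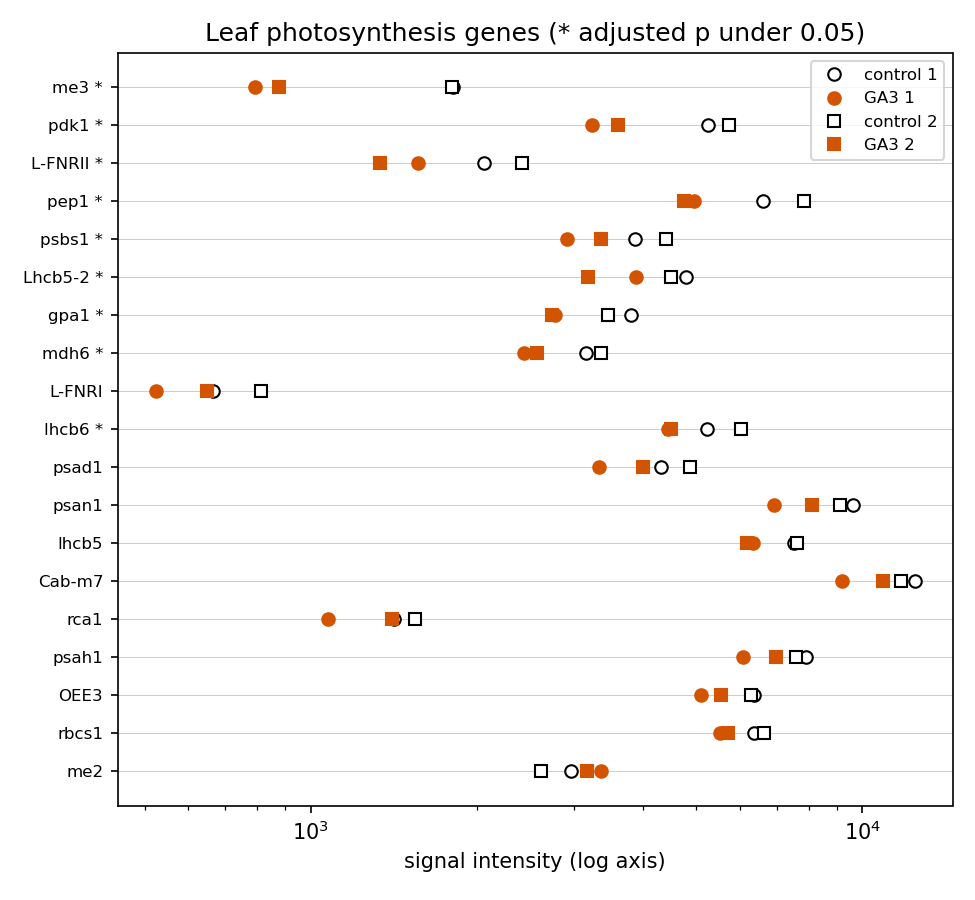
Signal intensity on a log axis of the 19 leaf photosynthesis genes, ordered by log2 change, with open symbols for control, filled symbols for GA3, circles for replicate 1, squares for replicate 2 and an asterisk at the 9 called genes. Both GA3 arrays lie below both control arrays for every gene but me2, where they lie above.

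The list of transcription factors had 1 rise and 1 fall among 16. It leaves out the MADS-box gene m21 and also m26, both named below among the falls. The MADS-box gene M2, with the synonym ZMM2 and related to AGAMOUS of flower development, had 111 and 98.3 in control and 180 and 197 in GA3 (log2 0.77, adjusted p = 0.011), and its call was lost without control replicate 2 or either GA3 replicate (0.091 to 0.11). The MADS-box gene m19, with the synonym tunicate1, fell from 460 and 482 to 320 and 254 (log2 −0.69, adjusted p = 0.0056; 0.12 without GA3 replicate 2). Both also stand in the list of pollen and flower genes, of which 1 of 6 rose and 4 fell, with none called without the block. That list was matched by gene symbol, so its falls are not read as a change in floral tissue. Further fallers there were m21 (612 and 570 in control, 388 and 314 in GA3, log2 −0.73, adjusted p = 0.0014), m26 (log2 −0.55, adjusted p = 0.042) and ts2, the tasselseed2 dehydrogenase that removes pistils from the tassel, with 299 and 246 in control and 154 and 107 in GA3 (log2 −0.99, adjusted p = 0.00059). The call of m26 was lost without any 1 control or GA3 array (up to 0.21), and m19, m21 and m26 were not called under poly-A control scaling.

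Calls among hormone and growth genes outside these groups were few in number. The auxin and ethylene lists were short, and in each 1 of 3 genes measured was called (33.3%, beside 13.8% of all genes). The auxin-binding protein gene abp1 rose from 2163 and 1845 to 2707 and 2456 (log2 0.37, adjusted p = 0.041; not called without control replicate 2 or either GA3 replicate, up to 0.20). The ACC oxidase gene ACO31, for the last step of ethylene synthesis, fell from 1508 and 1184 to 754 and 886 (log2 −0.70, adjusted p = 0.0047), with unequal differences of −0.98 and −0.41 in the pairs, and lost its call without control replicate 1 or GA3 replicate 1 (up to 0.11). None of 10 cytokinin and brassinosteroid genes was called, with log2 changes between −0.41 and 0.28. Of 20 cell cycle, histone and kinesin genes krp6 alone was called, with 905 and 900 in control and 650 and 702 in GA3 (log2 −0.41, adjusted p = 0.045; not called without any 1 control or GA3 array, up to 0.30). Cyclin cycD2, pcna1 and cdc2 had log2 changes of 0.27, −0.29 and 0.24 that did not pass.

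Ribosomal protein genes stayed close to 0, with a median of 0.07 over 19. Those called were RPS10 and rps21b, higher by 0.47 and 0.39, and prpl35-1, a plastid ribosomal protein, lower by 0.49, with adjusted p of 0.046, 0.049 and 0.0087. Signals of RPS10 and rps21b overlapped between groups, and both lost their calls without control replicate 2 or either GA3 replicate, RPS10 also without control replicate 1 (adjusted p up to 0.32 and 0.43), and prpl35-1 lost its call without GA3 replicate 2 (0.11). Of 10 peroxidases and antioxidant enzymes, ap1, with the synonym Px11, rose from 502 and 421 to 697 and 617 (log2 0.50, adjusted p = 0.017), but not without any 1 control or GA3 array (up to 0.15).

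Large falls were also seen for genes whose function is not given here. LOC100125656 had 1510 and 1269 in control and 105 and 99.5 in GA3 (log2 −3.56, SE 0.14, adjusted p = 5.5e-09), the largest fall of any probe set kept. LOC100037813 went from 438 and 426 to 127 and 127 (log2 −1.65), LOC541622 from 715 and 684 to 303 and 237 (log2 −1.33), and aprl1, AGA3b, nthr3, SAG and AGA2 fell by between 0.72 and 1.19 on the log2 scale. The pairs agreed closely for all but AGA2, whose differences were −0.40 and −1.04 and whose call was lost without control replicate 2 (adjusted p = 0.075) or GA3 replicate 2 (0.41). Among LOC genes the largest rise was that of LOC542633, from 279 and 210 to 532 and 413 (log2 0.91). Of probe sets without a gene name, Zm.2707.1.S1_at rose from 237 and 209 to 958 and 895 and Zm.9034.1.A1_at from 111 and 116 to 504 and 452, while Zm.10175.1.A1_at fell from 849 and 811 to 82.0 and 62.6 and Zm.1794.1.S1_at from 773 and 803 to 87.1 and 93.7.

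Where the GA3 response stood beside that to the inhibitor was read from the same fit. UCZ against control called 34.7% of probe sets and GA3 against UCZ 31%. Both share arrays with GA3 against control, so the values are given side by side and no relation is computed. UCZ values are as deposited. The spiked-in poly-A controls averaged log2 9.12 and 8.86 on the UCZ arrays, against 8.50 and 8.17 in control. Scaling to them would lower UCZ values against control, those of expB7 included, but UCZ changes under that scaling were not computed. Against the 4.13-fold rise under GA3, expB7 also had a higher signal under UCZ, 1411 and 1074 (log2 1.01, adjusted p = 3.6e-05), and was 1.04 higher in GA3 than in UCZ on the log2 scale. The expansins expA3, expB6 and expB8, which rose under GA3, were lower than control under UCZ, by −0.57, −0.55 and −0.94. The same held for phytase1 (−0.52), pip2f (−0.68), pip1e (−0.32), gst2 (−1.05) and gst11 (−0.65), all called. For mlg3, piip1 and EXPA5 the UCZ change did not pass (−0.18, −0.27 and −0.22). Other genes that rose under GA3 were, like expB7, also called higher under UCZ. Among them were hsp18 (3.50), hsp22 (1.39), hsp18a (0.92), prp2 (0.90), pdc3 (0.82), Agpsemzm (0.65), por2 (0.49), abp1 (0.44) and dhn1 (0.37).

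Many genes that fell under GA3 were below control under UCZ as well. Signals of pr5 were 594 and 556 under UCZ (log2 −1.69), those of chn1 2262 and 2280 (−0.84), those of sps1 135 and 101 (−1.50) and those of me3 740 and 710 (−1.30). Larger under UCZ than under GA3 was the fall of f3h, at 84.5 and 90.0 (−2.50), of AGA3b (−2.08) and of Lsi6 (−1.64), and GA3 against UCZ itself was called for these 3 (log2 1.45, 1.10 and 0.92). The MADS-box gene m21 went the other way, lower by 0.73 under GA3 and higher by 0.35 under UCZ (adjusted p = 0.037). Among the photosynthesis genes pep1 had a UCZ change of 0.05 and psbs1 one of 0.21, neither called, and mdh6 and L-FNRII rose under UCZ by 0.33 and 0.36. The UCZ values of m21 and of these genes were likewise not scaled to the poly-A controls, which would lower them.

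**Figure D5:**
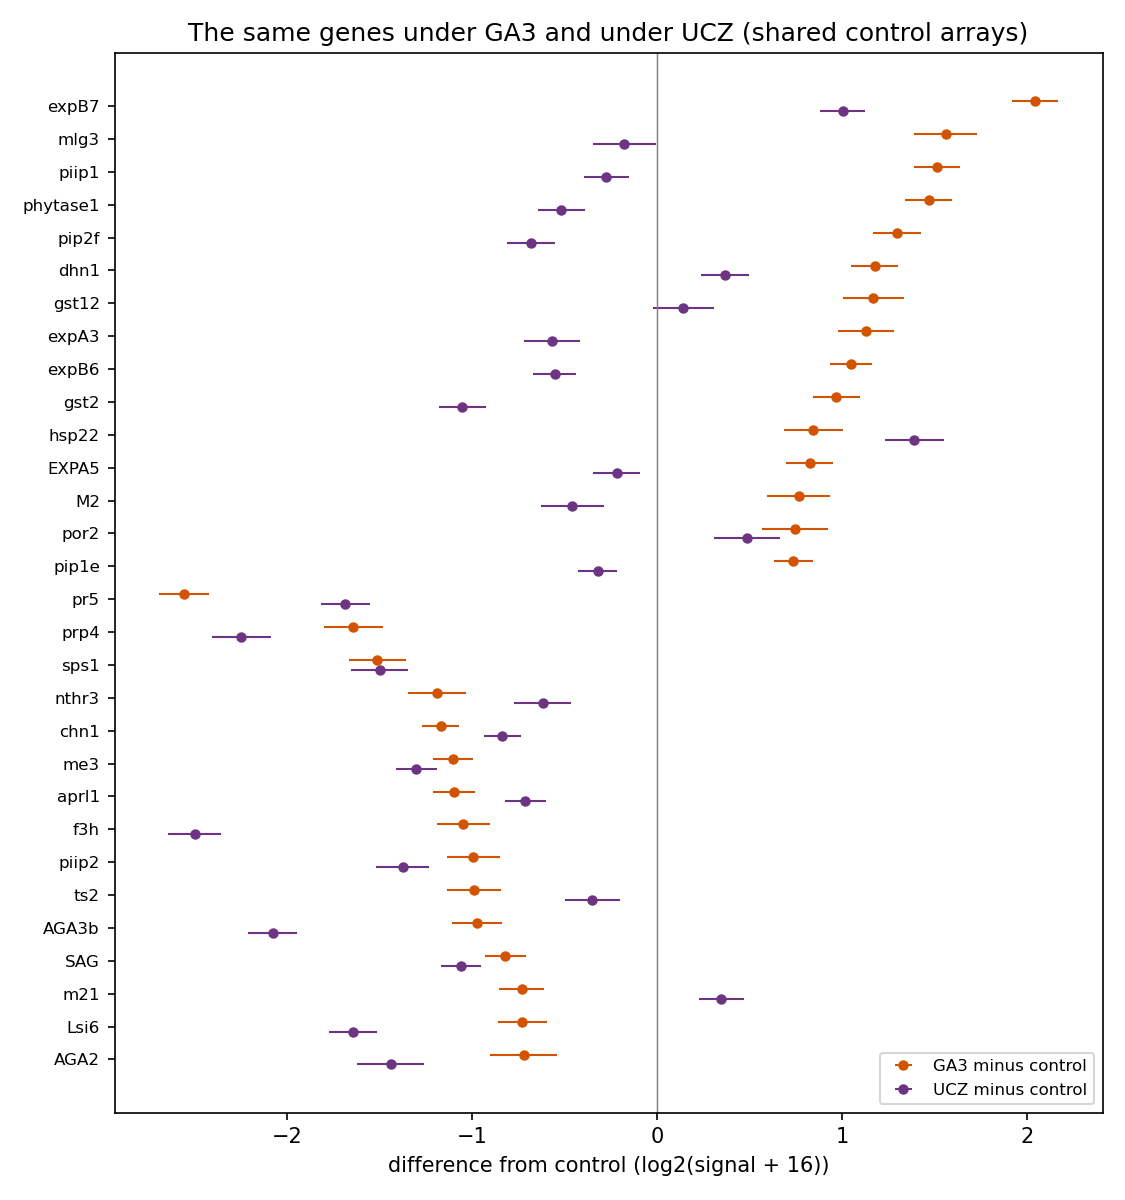
Difference from control under GA3 and under UCZ, in log2(signal + 16), for the 15 largest rises and 15 largest falls under GA3, with points at the mean of both pairs and bars of 1 SE from the fit. Most of the falls lie left of 0 for both treatments, with m21 right of 0 under UCZ, while the rises are spread over both sides of 0 under UCZ; both comparisons use the same control arrays.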

How the data were processed

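Each array gave 1 signal intensity per probe set. The authors made these deposited intensity values with GCOS and MAS5, per the submitters' processing notes, with the trimmed mean of each array near 500.1. From these, AFFX and RPTR probe sets (113 and 66 of 17734) were left out, 16 was added, log2 was taken, and the brightest 60% by mean over all 6 arrays were kept (10533). limma 3.58.1 in R 4.3.3 fitted group and replicate number over 6 arrays (lmFit, eBayes with trend), with Benjamini-Hochberg adjustment over all probe sets kept. The series' design text names independent experiments, and the labels number the replicates in each group. Arrays with the same number were taken to come from the same experiment. The deviations of same-numbered arrays from the group means correlated at 0.664 (control with GA3), 0.724 (control with UCZ) and 0.757 (GA3 with UCZ). Fold changes are on the log2(signal + 16) scale. The fit was also run on simulated data, drawn from the fitted model with planted changes of at least 2-fold. Most called changes here were smaller, so that run checks the code and does not support the calls.

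Gene names came from the platform annotation, updated through RefSeq (1452 probe sets with 1 gene, 1 with several); a gene was represented by its brightest probe set. Named genes were the 15 largest called rises and 15 largest called falls, the called members of the gene lists, the gibberellin genes, and the 5 largest LOC changes and 2 largest unnamed changes in each direction. Other members named, to show what did not pass, were chosen after their values were seen. The members and lists were chosen with earlier results of these data known, and lists were corrected after the matched names were read. No sequence is printed.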

Additional observations from a re-analysis of the deposited data

How the results depend on the processing

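All values here are GA3 against control. The 861 calls stayed within 1.5 times under every alternative except 3: without the replicate block 139 were called, all among the 861, and poly-A control scaling called 455, of which 402 are shared, and without GA3 replicate 1 there were 511. Leaving out 1 array gave 511 to 959 calls, of which between 38.0% and 41.5% were higher in GA3, against 37.6% over all arrays. Median centring made this share 41.7%, no filter 33.3% and poly-A control scaling 67.9%. Of the 30 largest named changes, 16 were called without the block, 18 among the brightest 40% of probe sets, where fewer genes were tested, and 27 to 30 with 1 array left out. Probe sets changed 2-fold alike in both pairs numbered 98, then 166 with no filter and 46 among the brightest 40%, where more or fewer were tested, and 82 under poly-A control scaling. Of 1469 gene values under the alternatives, 1195 kept direction and side of the threshold, 272 fell below it and 2 turned direction, both of an1, never called: 0.16 under poly-A control scaling, and a range from −0.050 to 0.0090 with 1 array left out, the latter without control replicate 2. Apart from fewer genes tested or samples, the cause was not tested. With 2 arrays a group, small changes of dim probe sets could not be told from the spread.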

Other observations

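Other named genes passed the threshold outside the groups above and were chosen after their values were seen. In GA3, pdrp1, the regulator of pyruvate phosphate dikinase, fell by 0.59 on the log2 scale, and the fatty acid desaturase genes fad7 and FAD8 fell by 0.56 and 0.45. The plastid sigma factor gene sig2B fell by 0.57 and the dicarboxylate transporter gene pDCT2 by 0.62. Among the rises was HRGP, a hydroxyproline-rich wall glycoprotein, with a log2 change of 0.50.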
